A study of Mus musculus with 88 samples.

Results

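The 10 germline and meiosis genes Dazl, Ddx4, Mael, Tex15, Tex11, Sycp1, Sycp3, Stk31, Taf7l and Hormad1 were followed through every experiment of a study on Polycomb Repressive Complex 2 (PRC2) in mouse embryonic stem cells (ESCs). They were taken by name, as genes whose normal place of expression is the germ line, with earlier results of these data known. All 10 were found in each table, among 53697 genes of the mesoderm table, 54393 of the endoderm table, 26007 of the bulk embryoid body table and 15830 of the single-cell table. All 10 passed the filters on low values in each bulk fit.

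Germ cells arise from primordial germ cells, which switch on a set of RNA-binding and piRNA genes before they enter meiosis. In other cells these genes are kept silent by several systems, among them DNA methylation of CpG-rich promoters, H3K9 methyltransferases, the non-canonical Polycomb complex PRC1.6, which carries the DNA-binding partners MGA, MAX and E2F6, and, at part of the promoters, PRC2. PRC2 methylates histone H3 on lysine 27. Its EED subunit is needed for the enzyme, whereas MTF2 marks the PRC2.1 and JARID2 the PRC2.2 form, and ESCs hold low levels of many germline transcripts.

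DAZL binds the 3′ ends of germ cell mRNAs, and DDX4, the mouse VASA protein, is a germ granule helicase. MAEL and TEX15 act in silencing of transposons in the male germ line, TEX15 with the nuclear piRNA system. SYCP1 forms the transverse filaments and SYCP3 the lateral elements of the synaptonemal complex, which holds paired chromosomes together. HORMAD1 marks unpaired chromosome axes, and TEX11 is an X-linked factor of meiotic crossing over. STK31 is a Tudor domain protein of germ cells, and TAF7L, also X-linked, is a relative of the general transcription factor TAF7 used in spermatogenesis.

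In the directed series, WT (E14 ESCs), Mtf2 null and Jarid2 null cells were sequenced undifferentiated (UD) and after 5, 24 and 48 h in medium for mesoderm or endoderm, and each genotype was sequenced in duplicate at each time of either series, giving 48 libraries. Bulk embryoid bodies (EBs) were aggregated with LIF present and then differentiated by taking LIF away. They came from lines labelled Mtf2 null, Jarid2 null and Eed null. Beside these stood Pcl1-3 WT, JM8 and J1, which the paper describes as WT cells of matched background. Samples were taken at days 0, 2, 4 and 7, with 1 sample per line and day. The day 0 samples of this set are undifferentiated cells, with columns named mono, and the later ones are EBs. Single-cell libraries of the WT and of all 3 mutant genotypes were made from undifferentiated cells (day 0) and from EBs at days 4, 7 and 10. There was 1 library per genotype and day, with 4949 cells in all. All ESCs were grown in serum with LIF, and each mutant is 1 line. In the directed series and in the single cells the WT is E14. The sample titles give E14 for the mutants as well, but the paper matches the mutants to Pcl1-3 WT, JM8 and J1 cells. Genotype and line background therefore cannot be told apart there. The authors describe the directed duplicates as technical, so the p-values below measure only the spread between these libraries.

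The directed libraries held 9111880 to 16898264 counts, the EB columns 3005707 to 22944105 reads and the single-cell libraries 1339722 to 3889890 UMIs (unique molecular identifiers, 1 per captured mRNA). Mtf2 fell in the directed Mtf2 null libraries, which held 29.9 to 38.5 CPM (counts scaled to the library size) against 203 to 509 CPM in WT. Jarid2 was lower at some times in the directed libraries labelled Jarid2 null, but was not lost. Undifferentiated, they held 299.5 to 330 CPM against 346 to 473 CPM in WT (log2 fold change -0.41, edgeR adjusted p = 0.00733). At 24 h of mesoderm differentiation they held 188 and 219 against 313 and 337 CPM (-0.68, adjusted p = 5.03e-04). The endoderm libraries of that time held 289 and 285 against 340 and 336 CPM (-0.24, adjusted p = 0.539). For mesoderm and endoderm, the log2 fold changes were -0.08 and -0.09 at 5 h, and 0.09 and 0.19 at 48 h. The transcript thus bears out that label only in part, and these are called the libraries labelled Jarid2 null. In the EBs none of the 3 targeted genes differed at the adjusted p threshold between a mutant label and its matched WT line. The single cells went with their labels, with 5.67 UMI CPM of Eed in Eed null against 271 in WT cells, 143 of Jarid2 in Jarid2 null against 379, and 57.6 of Mtf2 in Mtf2 null against 536. The primitive streak gene T reached 54.7 and 61.1 CPM at 24 h in the mesoderm and 23.6 and 28.9 CPM in the endoderm series in WT. The endoderm markers Sox17 and Foxa2 were nearly absent from WT at 48 h of the endoderm series, at no more than 0.397 and 0.376 CPM. In the Mtf2 null libraries of that time Sox17 stood at 29.2 and 32.7 CPM and Foxa2 at 14.8 and 18.9 CPM.

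The promoters are shown because most members share a motif there that their choice did not use. Promoter windows of 300 bases, from 250 before to 50 after the transcription start, were found in the RefSeq table (GRCm38.p6) for 8 of the 10 members, and Tex15 and Tex11 had no entry. The E-box CACGTG, read the same on both strands and bound by MAX and its partners among other factors, stood in 7 of the 8 windows (87.5%) against 7.24% of 27025 promoters. The members' windows were rich in CpG, with a median of 24 CpG against 7 over all promoters and a GC content of 65.2% against 52.7%. Among the 8354 promoters with 15 to 38 CpG, the range of the members, 11.5% held the E-box. The E2F-type motif TCCCGC, or GCGGGA on the other strand, stood in 5 of the 8 windows (62.5%), against 20% of all promoters and 43% of those in the same CpG range. These matches are a description of the letters in the window and not of binding. The 40-base windows around each E-box are printed 5′ to 3′ on the strand of the gene, with the E-box in capitals.
Ddx4: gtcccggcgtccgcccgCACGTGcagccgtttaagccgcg
Mael: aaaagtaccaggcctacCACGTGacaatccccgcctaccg
Sycp1: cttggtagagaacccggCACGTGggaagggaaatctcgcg
Sycp3, first: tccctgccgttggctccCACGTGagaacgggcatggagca
Sycp3, second: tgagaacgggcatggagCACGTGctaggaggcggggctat
Stk31: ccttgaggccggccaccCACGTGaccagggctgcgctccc
Taf7l: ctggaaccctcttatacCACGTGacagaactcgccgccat
Hormad1, first: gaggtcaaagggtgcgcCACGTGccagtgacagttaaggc
Hormad1, second: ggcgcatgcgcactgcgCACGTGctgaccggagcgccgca

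The Ddx4 window lies at chr13:112652317-112652356 on the minus strand, with the E-box beginning at -29 from the start. The Mael window lies at chr1:166238945-166238984 (minus, -223) and the Sycp1 window at chr3:102936172-102936211 (minus, -94). The Sycp3 windows lie at chr10:88459506-88459545 and chr10:88459527-88459566 (plus, -64 and -43), and the Stk31 window at chr6:49395467-49395506 (plus, -55). The Taf7l window lies at chrX:134476517-134476556 (minus, -49), and the Hormad1 windows lie at chr3:95559603-95559642 and chr3:95559640-95559679 (plus, -57 and -20). In 6 of the 7 genes an E-box thus began within 100 bases of the start, and Mael was the exception.

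Dazl held neither motif in its window at chr17:50293571-50293870 (minus strand), although the window had 28 CpG and 68.7% GC. It is printed whole in lower case for comparison with the others.
Dazl: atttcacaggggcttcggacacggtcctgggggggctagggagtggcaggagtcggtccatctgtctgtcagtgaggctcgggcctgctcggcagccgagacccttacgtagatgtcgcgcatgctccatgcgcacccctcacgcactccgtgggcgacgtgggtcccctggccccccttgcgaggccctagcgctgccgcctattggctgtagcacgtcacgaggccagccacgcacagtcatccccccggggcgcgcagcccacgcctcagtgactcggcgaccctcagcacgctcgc

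By the GENCODE M21 annotation (GRCm38), Tex15 lies on chromosome 8 (33516738 to 33585582, plus strand) and Tex11 on the X chromosome (100838648 to 101059667, minus strand), beside Taf7l as the second X-linked member. Sycp3 (chromosome 10, 88459569 to 88473236, plus strand) lies wholly within Chpt1, a phospholipid synthesis gene on the opposite strand, over its 13668 bases. The use of strand in counting is not given in the sources used here, so in the bulk data reads of Sycp3 and of Chpt1 cannot be told apart where they overlap. Tex11, Sycp1 and Stk31 overlap only pseudogenes and small nuclear RNA genes of at most 824 shared bases.

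All 10 genes were detected in undifferentiated WT cells, at different levels. Per kilobase of exon, Sycp3 stood highest in WT at 14.1 ± 2.67 CPM per kb (SD, n = 4 libraries over both directed series), followed by Mael (7.48 ± 0.436), Ddx4 (6.86 ± 0.388) and Hormad1 (5.69 ± 1.20). Tex11 (4.10 ± 0.945) and Stk31 (4.01 ± 0.982) came next, above Tex15 (1.43 ± 0.340), Dazl (1.40 ± 0.167), Taf7l (0.854 ± 0.194) and Sycp1 (0.465 ± 0.115). The ranges of Sycp3 and Mael, of Stk31 and Tex15, and of Dazl and Taf7l did not overlap, and all other neighbours in the order overlapped. In the Mtf2 null libraries Tex15 led the order at 9.21 ± 0.931 CPM per kb, above the range of Ddx4 (6.71 ± 0.451), and Sycp3 followed at 5.26 ± 0.983 with Mael between them at 6.15 ± 1.25. In the libraries labelled Jarid2 null the order began as in WT with Sycp3 (18.1 ± 2.79), Mael (9.75 ± 0.296) and Ddx4 (7.42 ± 1.24).

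The first comparison asked which members differed in undifferentiated cells without MTF2. Loss of MTF2 went with a mixed picture, in which Tex15, Sycp1 and Taf7l were higher and Tex11 and Sycp3 lower. With 4 libraries against 4, edgeR's quasi-likelihood test with a term for the series called 5 of the 10 members (adjusted p below 0.001, and beyond 1 in log2 fold change), beside 14.7% of all genes tested. The median log2 fold change over the 10 members was -0.30, against -0.04 over all genes tested. In bulk samples such as these, fewer cells of a type and less RNA per cell cannot be told apart.

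Tex15 stood at 81.9, 84.8, 85.9 and 102 CPM in the Mtf2 null libraries and at 9.35, 13.4, 15.4 and 16.9 CPM in WT. The lowest Mtf2 null library thus lay far above the highest WT library, with a log2 fold change of 2.68 (SE 0.142, edgeR adjusted p = 7.72e-10). Sycp1 had 5.31, 7.72, 8.76 and 10.7 CPM in Mtf2 null against 1.181, 1.60, 1.66 and 2.17 CPM in WT, again without overlap, and a log2 fold change of 2.24 (SE 0.288, adjusted p = 9.38e-06). Taf7l, with 3.95 to 4.82 CPM against 1.32 to 2.26 CPM, had a log2 fold change of 1.13 (SE 0.211, adjusted p = 3.22e-04).

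The crossing over factor Tex11 fell from 10.4, 13.9, 17.2 and 17.9 CPM in WT to 4.06, 4.94, 5.12 and 5.26 CPM in Mtf2 null libraries (log2 fold change -1.63, SE 0.171, edgeR adjusted p = 1.15e-06). Sycp3 fell from 12.8, 19.0, 19.13 and 20.2 CPM to 5.10, 6.23, 7.45 and 7.84 CPM (-1.43, SE 0.128, adjusted p = 2.02e-07). Both sets of 4 lay wholly below WT. The synaptonemal genes Sycp1 and Sycp3 therefore moved in opposite directions in the same libraries. The WT here is E14. Against Pcl1-3 WT in the bulk EBs, Tex11 was positive under the label Mtf2 null but not called (log2 fold change 1.23, SE 0.398, limma adjusted p = 0.104). In the single cells it had 15, 13, 0 and 1 UMIs in Mtf2 null at days 0, 4, 7 and 10. WT had 6, 5, 2 and 2, and the intervals overlapped on each day.

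The other 5 members were not called. Stk31 came nearest, at 7.27 to 8.26 CPM in Mtf2 null and 8.66 to 16.1 CPM in WT (log2 fold change -0.78, SE 0.158, edgeR adjusted p = 6.84e-04), a p past the threshold with a change under the fold limit. Dazl (-0.44), Mael (-0.30), Hormad1 (-0.30) and Ddx4 (-0.04) had smaller values. The Taf7l call was lost without any 1 of 5 of the 8 libraries, namely both mesoderm Mtf2 null libraries, mesoderm WT replicate 1, endoderm WT replicate 1 and endoderm Mtf2 null replicate 2, with log2 fold changes of 0.90 to 1.12. The calls of Tex15, Sycp1, Tex11 and Sycp3 kept their side of the threshold without each of the 8 libraries.

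None of the 10 members was called in the undifferentiated libraries labelled Jarid2 null, where edgeR called 1.15% of all genes. DESeq2 called 0 members as well, and 6 had an unadjusted edgeR p under 0.05, 2 of them higher and 4 lower. Here and below, the share of all genes at that unadjusted p is not given for the directed series. No shift of the members is therefore read from such counts. The nearest was Dazl, at 2.76 to 3.504 CPM against 4.43 to 5.82 CPM in WT (log2 fold change -0.79, SE 0.160, edgeR adjusted p = 0.00280). The median over the members was -0.06, against -0.01 over all genes tested.

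Set directly against the libraries labelled Jarid2 null, a contrast added after the data had been seen, undifferentiated Mtf2 null cells had 4 members called, beside 14.0% of all genes. Tex15 (log2 fold change 3.00, SE 0.144, edgeR adjusted p = 2.35e-10) and Sycp1 (2.14, SE 0.277, adjusted p = 1.08e-05) were higher, and Sycp3 (-1.76, SE 0.125, adjusted p = 1.80e-08) and Tex11 (-1.01, SE 0.173, adjusted p = 1.60e-04) lower. The Tex11 value fell to -0.99 or -0.98, inside the fold limit, without mesoderm Mtf2 null replicate 2, endoderm Mtf2 null replicate 1 or endoderm Jarid2 null replicate 1.

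**Figure D1:**
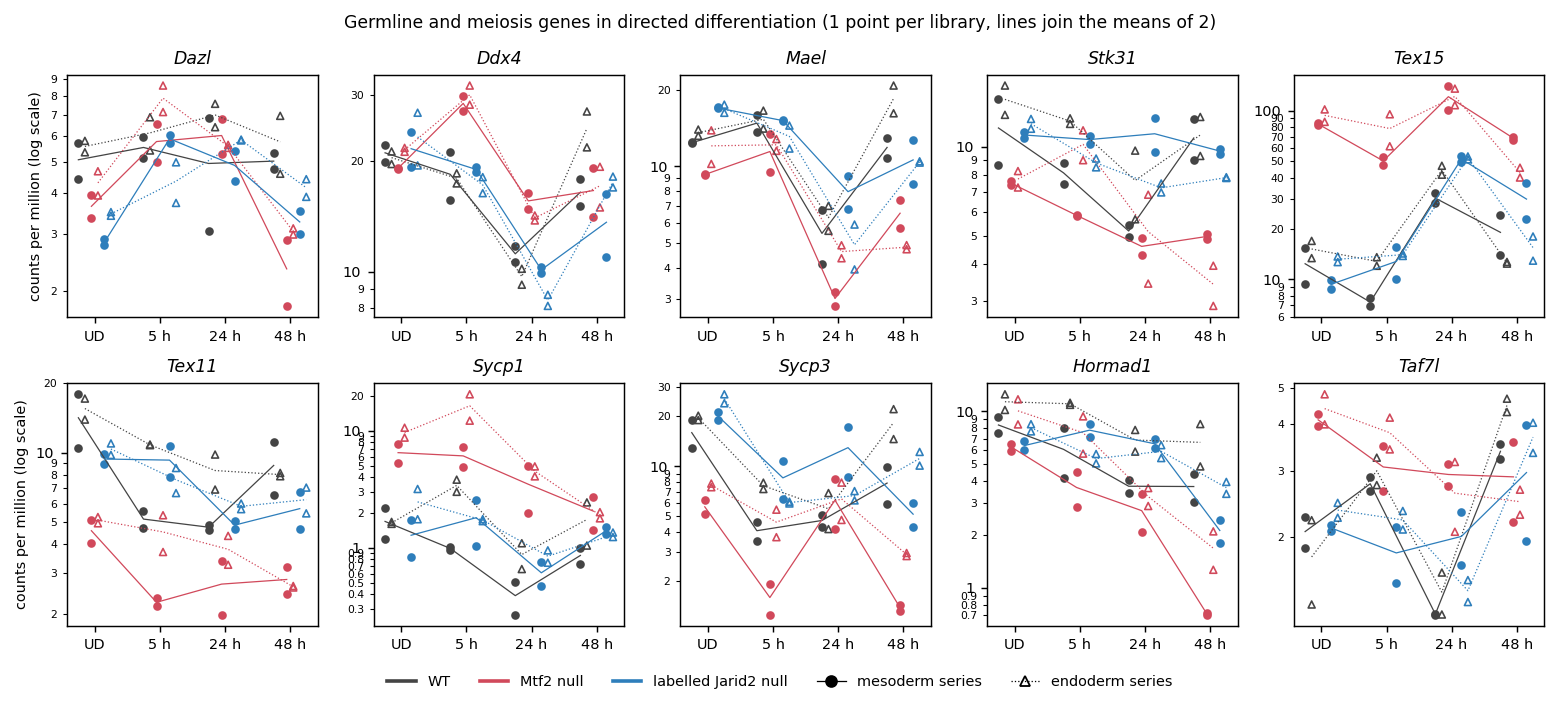
Levels of the members in CPM (log axis) in each directed library by hours of differentiation, with filled circles and solid lines for the mesoderm series, open triangles and dotted lines for the endoderm series, lines through the means of the 2 libraries, and colours for WT, Mtf2 null and the libraries labelled Jarid2 null. The Tex15 points of Mtf2 null lie above all WT points of the same series and time, from 81.9 to 102 CPM against 9.35 to 16.9 CPM in undifferentiated cells.

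Other germline genes, of lists chosen with earlier results of these data known, moved both ways in undifferentiated Mtf2 null cells, where 14.7% of all genes were called. Of 7 genes of primordial germ cell specification, 3 were called higher and 3 lower by edgeR in the 8 libraries, among them Dppa3 (log2 fold change 2.58) and Prdm1 (2.23), which rose, and Dnd1, an RNA-binding protein of germ cells, which fell (-1.84). Of 11 tested piRNA genes 1 rose, Tdrd5 (2.32), and 4 fell, among them Piwil4 (-3.18) and Tdrkh (-2.18). Of 15 tested genes of meiotic recombination and the synaptonemal complex 0 rose and 4 fell, among them Smc1b (-2.91), Hormad2 (-2.64) and Stag3 (-2.33), a cohesin subunit. Of 13 genes that silence germline promoters in ESCs 1 was called, the DNA methyltransferase gene Dnmt3a, with a log2 fold change of -1.27 (SE 0.0867, edgeR adjusted p = 1.09e-08).

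During directed differentiation the question was whether these differences lasted. Tex15 was the most stable of them, as it was called higher in Mtf2 null in all 8 comparisons over both series and 4 times, with log2 fold changes of 1.46 to 2.79. Sycp1 was called higher in 5 of the 8 and Tex11 lower in 6 of the 8. Hormad1 and Stk31 in both series and Mael in the endoderm series were called lower in Mtf2 null at 48 h and at no earlier time. Sycp3 was called lower at 48 h in both series and in UD cells of the endoderm series and of both series pooled.

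In the mesoderm series, Tex15 stood at 53.1 and 47.7 CPM in Mtf2 null against 7.70 and 6.96 CPM in WT at 5 h, at 141 and 101 against 32.4 and 28.2 CPM at 24 h, and at 67.2 and 70.1 against 23.9 and 14.0 CPM at 48 h. The groups did not overlap at any time, and the log2 fold changes were 2.79 (SE 0.281), 2.00 (SE 0.237) and 1.86 (SE 0.243), with edgeR adjusted p of 2.36e-07, 2.50e-06 and 7.14e-06. WT itself held more Tex15 at 24 h than at 5 h, and whether the fold differed between times 5 and 24 h was not tested.

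Tex15 of the endoderm series had 61.5 and 95.3 CPM in Mtf2 null against 13.53 and 12.0 CPM at 5 h, 108 and 135 against 41.7 and 47.1 CPM at 24 h, and 45.9 and 40.1 against 12.7 and 12.4 CPM at 48 h. The log2 fold changes were 2.63 (SE 0.186), 1.46 (SE 0.165) and 1.79 (SE 0.190), again without overlap. None of the 8 Tex15 calls was lost when 1 library was left out.

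Sycp1 was low in WT in both series, between 0.267 and 3.82 CPM over all times. In Mtf2 null it had 7.27 and 4.95 CPM at 5 h of the mesoderm series against 1.01 and 0.963 CPM in WT (log2 fold change 2.62, SE 0.508, edgeR adjusted p = 4.99e-04) and 5.00 and 1.98 CPM at 24 h against 0.267 and 0.509 CPM (3.09, SE 0.591, adjusted p = 5.99e-04). In the endoderm series it had 12.2 and 20.6 CPM at 5 h against 3.82 and 3.01 CPM (2.27, SE 0.297) and 4.08 and 4.97 CPM at 24 h against 0.655 and 1.09 CPM (2.35, SE 0.376). At 48 h, with 1.41 to 2.70 CPM in Mtf2 null and 0.726 to 2.44 CPM in WT over both series, it was not called.

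Those Sycp1 calls rest on low levels. The mesoderm 5 h call was lost without any 1 of the 4 libraries (2.33 to 2.90), the mesoderm 24 h call without Mtf2 null replicate 1 (2.29), WT replicate 1 (2.75) or WT replicate 2 (3.64), and the endoderm 24 h call without WT replicate 1 (2.05) or Mtf2 null replicate 2 (2.23), all in the same direction.

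Of the lower members, Tex11 was called in UD and 48 h mesoderm libraries and at all 4 times of the endoderm series, with log2 fold changes of -1.12 to -1.65. At 48 h it had 2.43 and 3.21 CPM in Mtf2 null against 11.1 and 6.53 CPM in WT in the mesoderm, and 2.60 and 2.64 against 7.90 and 8.17 CPM in the endoderm series. The groups did not overlap at either end of the time course. The UD mesoderm call was lost without mesoderm Mtf2 null replicate 1 (-1.79), Mtf2 null replicate 2 (-1.46) or WT replicate 2 (-1.18). The endoderm calls at 5 h (down to -0.998) and 24 h (down to -0.85) were lost without Mtf2 null replicate 1 and without other libraries, at 5 h either WT library and at 24 h WT replicate 2 or Mtf2 null replicate 2.

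At 48 h, 5 of the 10 members were called in the mesoderm series (beside 6.82% of all genes) and 6 of the 10 in the endoderm series (beside 10.5%), of which Tex15 alone was higher. The medians over the members were -0.97 and -1.25, against 0.01 and -0.02 over all genes. At the earlier times 2 members were called in the mesoderm series in UD cells (11.1% of all genes), at 5 h (7.56%) and at 24 h (5.72%), and in the endoderm series 4 in UD cells (11%), 3 at 5 h (7.61%) and 3 at 24 h (6.58%).

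Sycp3 had 1.44 and 1.33 CPM in Mtf2 null against 9.90 and 5.88 CPM in WT at 48 h of the mesoderm series (log2 fold change -2.50, SE 0.435, edgeR adjusted p = 1.95e-04), and 2.97 and 2.85 against 14.6 and 22.2 CPM in the endoderm series (-2.64, SE 0.256, adjusted p = 4.06e-08). The axis gene Hormad1 had 0.720 and 0.704 CPM against 4.42 and 3.06 CPM in the mesoderm (-2.37, SE 0.387, adjusted p = 9.86e-05) and 1.26 and 2.08 against 4.86 and 8.45 CPM in the endoderm series (-1.96, SE 0.314, adjusted p = 3.70e-05). Neither gene overlapped between the genotypes.

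The Tudor gene Stk31 was called lower at 48 h in both series, at 4.86 and 5.08 against 12.3 and 9.03 CPM in the mesoderm (log2 fold change -1.09, SE 0.21) and 2.90 and 3.96 against 9.29 and 12.6 CPM in the endoderm series (-1.66, SE 0.270). Mael was called in the endoderm series alone, at 4.90 and 4.72 against 16.1 and 20.8 CPM (-1.93, SE 0.194, edgeR adjusted p = 7.84e-08). In the mesoderm series it had 7.38 and 5.71 against 10.8 and 12.9 CPM, and whether the 2 series differ was not tested.

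With 1 library left out, the 48 h calls of the mesoderm series were the least firm. Tex11, Sycp3, Stk31 and Hormad1 all lost theirs there without Mtf2 null replicate 1, Mtf2 null replicate 2 or WT replicate 1, with the same direction and log2 fold changes of -1.20 to -1.84, -2.08 to -2.55, -0.86 to -1.12 and -2.09 to -2.39. Of the endoderm calls, Stk31 (-1.42 and -1.45) and Hormad1 (-1.52 and -1.66) lost theirs without WT replicate 2 or Mtf2 null replicate 1, and the UD call of Sycp3 went without either Mtf2 null library (-1.44 and -1.36).

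**Figure D2:**
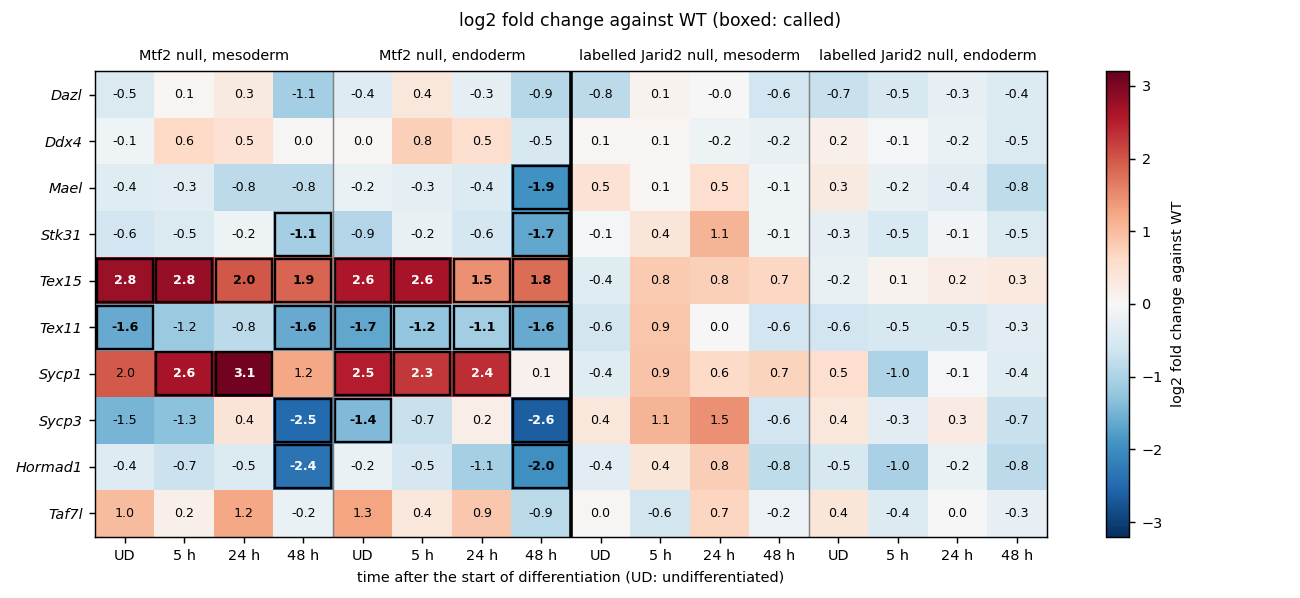
Log2 fold changes of the 10 members against WT by series and time for Mtf2 null and for the libraries labelled Jarid2 null, with the cell colour giving size and direction and a box where edgeR called the gene. Tex15 is boxed in all 8 Mtf2 null columns, from 1.46 to 2.79, and no cell of the Jarid2 null label is boxed.

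In the libraries labelled Jarid2 null none of the 10 members was called against WT in any of the 8 comparisons. The share of all genes called there was 0.37%, 0%, 1.97% and 0.169% at UD, 5, 24 and 48 h of the mesoderm series, and 0.742%, 0.0363%, 0.0312% and 0.125% in the endoderm series. Between 1 and 5 members had an unadjusted edgeR p under 0.05, and DESeq2 called 0 except at 24 h of the mesoderm series, where it called Stk31 (log2 fold change 1.12). Stk31 stood there at 12.5 and 9.60 CPM against 5.42 and 4.95 CPM in WT, and Tex15 at 53.9 and 49.5 against 32.4 and 28.2 CPM. At that time 8 of the 10 members had positive log2 fold changes, with a median of 0.66 against -0.04 over all genes.

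At 24 h in WT 4 of the 10 members were called lower than in UD cells in the mesoderm series and 3 in the endoderm series, and Tex15 was the 1 called higher in each. This contrast of 24 h with UD cells was also added after the data had been seen. Tex15 rose in WT in the mesoderm (log2 fold change 1.31, SE 0.264) and the endoderm series (1.53, SE 0.186), and in the libraries labelled Jarid2 null (2.47, SE 0.267, and 2.00, SE 0.183). In Mtf2 null cells, which began from a higher level, it was not called (0.55 and 0.40), and the difference between the genotypes was not tested.

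Mael fell at 24 h in all 3 genotypes and both series, by 1.10 to 1.77 on the log2 scale, for example from 12.3 and 12.4 CPM to 6.76 and 4.15 CPM in WT of the mesoderm series. Sycp3 fell in WT by 1.75 in the mesoderm and by 1.84 in the endoderm series, and Ddx4 by 1.09 in WT of the endoderm series. In all, 5 of the 10 members were called in WT at 24 h in the mesoderm (beside 6.96% of all genes) and 4 in the endoderm series (5.31%), with 1 and 2 in Mtf2 null (4.1% and 3.24%) and 3 and 4 in the label Jarid2 null (7.88% and 4.25%). The member medians in WT were -1.13 and -0.90, against 0.01 and -0.02 over all genes.

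These calls differed in firmness. In the mesoderm series each WT call was lost without at least 3 of its 4 libraries, Tex15 without any 1 of them (1.03 to 1.71), Mael without either UD library or WT 24 h replicate 2 (-0.83 to -1.17), and Tex11 (-1.12 to -1.57), Sycp3 (-1.44 to -1.86) and Stk31 (-0.73 to -1.19) without either 24 h library or UD replicate 2. Mael in Mtf2 null and under the label Jarid2 null of that series lost its call without any 1 of the 4 libraries (-1.503 to -1.69 and -0.89 to -1.26), and Ddx4 under that label without either 24 h library or UD replicate 1 (-0.91 to -1.06). In the endoderm series Tex15 and Sycp3 kept theirs in WT, Ddx4 lost its call without WT 24 h replicate 2 (-1.01) and Mael without that library (-0.97) or UD replicate 2 (-1.08), and in Mtf2 null Mael lost it without 24 h replicate 2 (-1.24) or UD replicate 2 (-1.12) and Hormad1 (-1.57 with all libraries) without either 24 h library or UD replicate 1 (-1.32 to -1.73).

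At 48 h few members were called against UD cells in WT, which is near the share of all genes called. None was called in the mesoderm series (beside 8.64% of all genes; 5 at an unadjusted edgeR p under 0.05 and 0 by DESeq2), and only Taf7l in the endoderm series (8.15%), from 1.32 and 2.22 CPM to 4.69 and 4.32 CPM (log2 fold change 1.33, SE 0.286, edgeR adjusted p = 9.95e-04). That call lay at the threshold and was lost without any 1 of its 4 libraries (1.01 to 1.76) and in DESeq2 (adjusted p = 0.00543).

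In Mtf2 null cells Hormad1 fell by 48 h in the mesoderm series, from 5.95 and 6.56 CPM to 0.720 and 0.704 CPM (log2 fold change -3.10, SE 0.377, edgeR adjusted p = 3.58e-06), the single member called there beside 6.28% of all genes. Over the same time 5 members fell in the endoderm series (8.93% of all genes), namely Hormad1 (-2.53), Sycp1 (-2.31), Sycp3 (-1.35), Mael (-1.28) and Tex15 (-1.09). All 10 members had negative log2 fold changes in both series. The Sycp3 call was lost without any 1 of its 4 libraries (-1.31 to -1.39), Tex15 without Mtf2 null 48 h replicate 2 or UD replicate 1 (-0.99 and -0.96), and Mael without UD replicate 2 (-1.05).

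Under the label Jarid2 null, Tex15 was higher at 48 h in the mesoderm series (log2 fold change 1.69, SE 0.272) and Sycp3 (-1.97) and Hormad1 (-1.59) lower, 3 members beside 8.5% of all genes, and Sycp3 was lower in the endoderm series (-1.18, SE 0.211), 1 member beside 8.5%. Without 48 h replicate 1 or UD replicate 1 the Tex15 call was lost (1.32 and 1.60), without either of these or 48 h replicate 2 both Sycp3 calls (-1.70 to -2.19 and -1.05 to -1.34), and without any 1 of the 4 libraries the Hormad1 call (-1.34 to -1.78).

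Whether the Mtf2 null difference itself changed between UD cells and 48 h was tested as an interaction. In the endoderm series 2 members passed, beside 5.24% of all genes. Taf7l rose from 1.32 and 2.22 to 4.69 and 4.32 CPM in WT but stood at 4.00 and 4.82 and then 2.67 and 2.29 CPM in Mtf2 null, a difference of -2.12 on the log2 scale (SE 0.390, edgeR adjusted p = 4.58e-04). Mael had 13.2 and 13.9 and then 16.1 and 20.8 CPM in WT, and 10.2 and 13.8 and then 4.90 and 4.72 CPM in Mtf2 null (-1.71, SE 0.268, adjusted p = 9.31e-05). In UD cells Taf7l of Mtf2 null lay above WT and Mael overlapped it, and at 48 h both lay below.

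The Taf7l interaction was lost without any 1 of 7 of the 8 libraries, all but WT UD replicate 2 (-1.80 to -2.25), and in DESeq2 (adjusted p = 0.00114), and that of Mael without Mtf2 null UD replicate 2 (-1.49). In the mesoderm series edgeR called 0 members (2.71% of all genes; 3 at an unadjusted p under 0.05, all lower, and 0 by DESeq2). For the label Jarid2 null it called 0 in both series (0.0545% and 0.514% of all genes; 1 and 3 members at an unadjusted p under 0.05, 0 by DESeq2).

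The bulk EBs set each mutant label beside its matched WT line. Under the label Eed null 9 of the 10 members had positive log2 fold changes over the 4 days, with a median of 1.89 against -0.003 over all 15837 genes tested. limma, with day as a block and an adjusted p threshold of 0.05, called 2 of the 10, Tex15 and Tex11, beside 8.43% of all genes. The labels Mtf2 null and Jarid2 null had 1 and 2 members called, beside 6.88% and 14.2% of all genes. At day 0 the targeted gene Mtf2 goes against the labels, with 317 CPM in the sample labelled Mtf2 null and 127 CPM in the sample labelled Jarid2 null, against 414 CPM in Pcl1-3 WT and 302 CPM in JM8. Whether the labels of these 2 samples are exchanged was not tested. They were kept as labelled, so values of these 2 labels at day 0 set beside later days may compare different lines. At days 2, 4 and 7 Mtf2 under the label Mtf2 null lay below Pcl1-3 WT, at 237, 230.5 and 164 against 442, 324 and 383 CPM. Under the label Eed null, Eed had 206, 107 and 58.1 CPM on these days against 245, 78.9 and 52.1 CPM in J1. Under the label Jarid2 null, Jarid2 had 662, 251 and 220 CPM against 642, 277 and 328 CPM in JM8. No targeted transcript was thus lost under its label at these days.

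Tex15 held 107, 164, 106 and 78.2 CPM at days 0, 2, 4 and 7 under the label Eed null, and 22.0, 40.3, 16.1 and 12.9 CPM in J1. It was higher on all 4 days, with a log2 fold change of 2.39 (SE 0.147, limma adjusted p = 0.00690). Tex11 held 28.9, 41.4, 16.5 and 13.1 CPM against 11.4, 18.3, 0.921 and 0.907 CPM (2.5, SE 0.537, adjusted p = 0.0441).

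Several other members were already low in J1 at days 4 and 7 while the label Eed null kept them. Dazl had 41.3, 19.7, 12.8 and 25.2 CPM against 37.9, 13.3, 1.23 and 2.22 CPM, and Mael 44.2, 16.8, 18.3 and 22.2 against 15.6, 10.1, 2.66 and 1.31 CPM. Stk31 had 28.2, 22.6, 19.14 and 16.8 CPM against 14.2, 19.8, 2.25 and 0.807 CPM. The log2 fold changes of Mael (2.199, SE 0.514, limma adjusted p = 0.0522), Stk31 (2.06), Taf7l (1.96) and Dazl (1.82) missed the threshold. Sycp3 was the 1 member with a negative value (-0.12, SE 0.562).

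Both Eed null calls were lost without any 1 of the 4 days, with log2 fold changes of 2.29 to 2.52 for Tex15 and 2.03 to 2.94 for Tex11 and adjusted p of 0.0565 to 0.129. A single fit over all 24 samples, added after the data had been seen, called 6 members under the label Eed null, 1 under Jarid2 null and 0 under Mtf2 null, beside 10.9%, 14.8% and 18.4% of all genes. The pluripotency markers moved the same way as the members under the label Eed null, with a median log2 fold change of 1.07 over 6 genes, none of them called, and their part in the result was not tested.

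**Figure D3:**
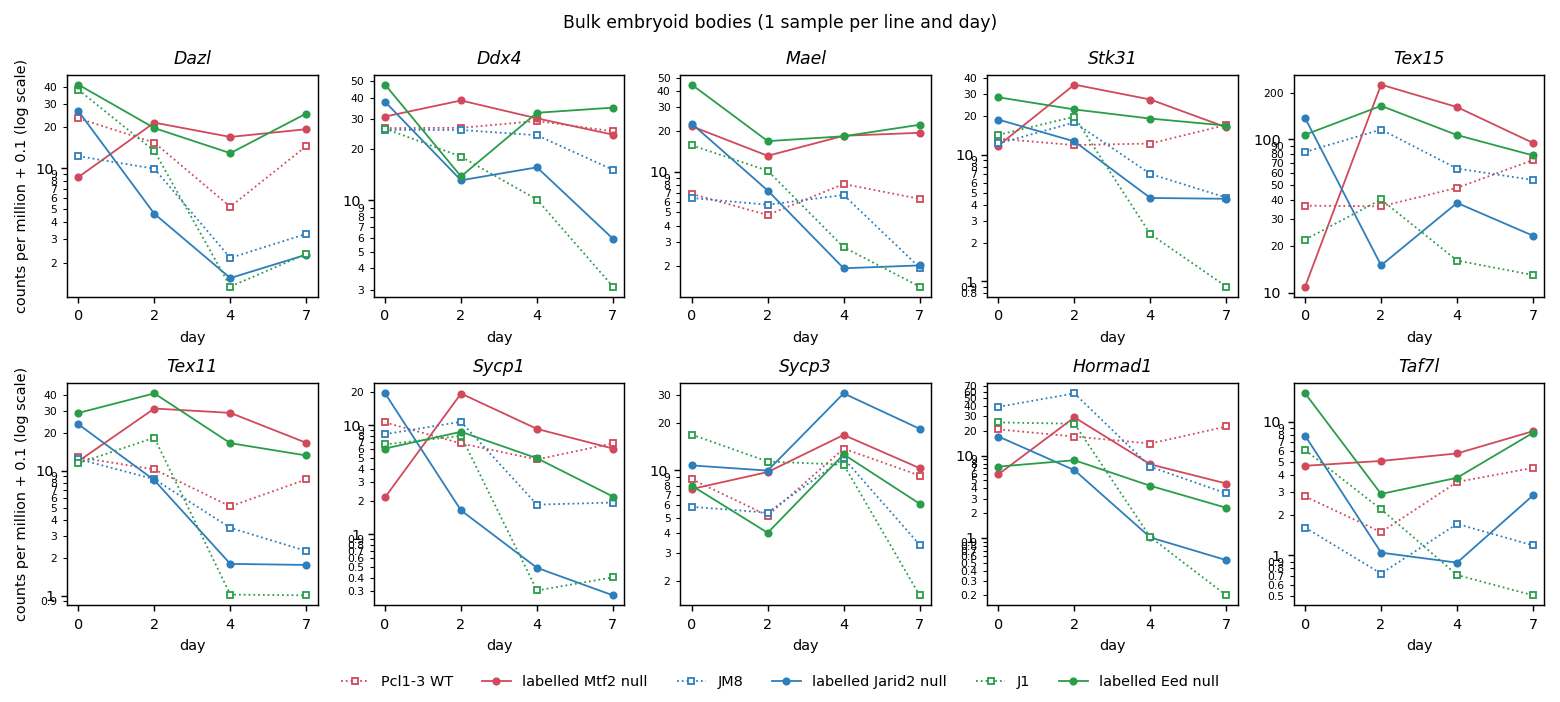
Levels of the members as CPM + 0.1 (log axis) in the bulk EB samples by day, with 1 point per line and day and mutant labels drawn beside their matched WT lines. Tex15 lies above J1 on all 4 days under the label Eed null. Mtf2 goes against the labels Mtf2 null and Jarid2 null at day 0, so the lines of these 2 labels between day 0 and day 2 may not show a change over time.

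Under the label Mtf2 null Mael was the 1 member called, at 21.7, 13.0, 18.4 and 19.4 CPM against 6.76, 4.69, 8.03 and 6.21 CPM in Pcl1-3 WT (log2 fold change 1.47, SE 0.234, limma adjusted p = 0.0169), without overlap. Its call was lost without day 2, day 4 or day 7 (1.42 to 1.57) and was kept without day 0 (1.41, adjusted p = 0.0343). From day 2 on, Tex15 had 226, 162 and 94.3 CPM, above the 36.4, 48.0 and 72.9 CPM of Pcl1-3 WT, and the doubtful day 0 sample had 10.8 CPM against 36.7 CPM.

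Under the label Jarid2 null Tex15 had 14.9, 38.3 and 23.4 CPM from day 2 on, below the 115, 64.2 and 54.1 CPM of JM8, and the doubtful day 0 sample had 137 CPM against 82.3 CPM. Sycp3 was called higher under this label, at 10.6, 9.85, 30.6 and 18.2 CPM against 5.77, 5.29, 11.8 and 3.27 CPM (log2 fold change 1.38, SE 0.306, limma adjusted p = 0.0309). Hormad1 was lower, at 17.0, 6.56, 0.914 and 0.438 CPM against 39.1, 57.0, 7.23 and 3.38 CPM (-2.38, SE 0.349, adjusted p = 0.0103). The Sycp3 call was lost without any 1 of the 4 days (1.03 to 1.55; 1.55 and adjusted p = 0.0555 without day 0), and the Hormad1 call without day 2, 4 or 7 (-2.15 to -2.34) but not without day 0 (-2.78, adjusted p = 0.0160).

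Single cells gave the clearest separation, with Eed null cells apart from the other 3 genotypes, of which the WT is E14. Since each genotype and day is 1 library, no test was made, and 95% Poisson intervals of the UMI CPM cover counting error only. The summed members had 332 UMI CPM (313 to 352), 495 (467 to 525), 478 (451 to 507) and 233 (208 to 260) in Eed null at days 0, 4, 7 and 10, against 99.7 (88.7 to 112), 326 (302 to 351), 105 (91.2 to 119) and 95.8 (80.3 to 114) in WT. The Eed null level was above WT on all 4 days. Against J1, the undifferentiated bulk sample labelled Eed null (day 0) differed little in Dazl (41.3 against 37.9 CPM) and Sycp1 (6.02 against 6.58 CPM). Hormad1 (7.26 against 25.2 CPM) and Sycp3 were lower there, and Ddx4, Mael, Tex15, Tex11, Stk31 and Taf7l were higher.

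Of the 10 members, 9, 7, 9 and 4 had higher levels in Eed null with intervals apart from WT at days 0, 4, 7 and 10, while 18.6%, 18.6%, 14.9% and 15.6% of all genes did. As the members were chosen with earlier results of these data known, these counts are a description. The median ratio of Eed null to WT over the members was 7.48, 5.93, 14.2 and 4.17. Mtf2 null had 1, 1, 0 and 1 members above WT in this way, beside 13.7%, 17.8%, 8.12% and 12.2% of all genes, and Jarid2 null 1 on each day, beside 12.5%, 18.7%, 9.55% and 13.4%.

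Tex15 was higher than in WT, here E14, in all 3 mutants on most days. It had 94.2, 88.6, 118 and 67.9 UMI CPM in Eed null at days 0, 4, 7 and 10, 54.5, 46.5, 18.3 and 15.7 in Mtf2 null, 23.1, 30.9, 28.3 and 17.3 in Jarid2 null, and 5.69, 6.54, 13.2 and 4.29 in WT. Its interval lay above that of WT on every day in Eed null and Jarid2 null, and in Mtf2 null on all days but day 7. At day 0 the order was Eed null (84.2 to 105), Mtf2 null (47.4 to 62.4), Jarid2 null (18.1 to 28.9) and WT (3.31 to 9.11), with no overlap between neighbours. In the bulk EBs at days 2, 4 and 7, Tex15 lay above the matched WT line under the labels Eed null and Mtf2 null. Under the label Jarid2 null it lay below JM8, at 14.9, 38.3 and 23.4 against 115, 64.2 and 54.1 CPM.

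Dazl had intervals above WT on all 4 days in Eed null and on none in the other mutants. It stood at 45.9, 108, 111 and 70.2 UMI CPM by day in Eed null against 8.03, 10.7, 11.8 and 5.72 in WT, with 9.00, 17.2, 7.06 and 4.63 in Mtf2 null and 4.36, 11.5, 15.2 and 15.0 in Jarid2 null. The ratio of Eed null to WT ran from 5.72 at day 0 (95% interval 3.71 to 9.20) to 12.3 at day 10 (5.97 to 29.2).

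Among the RNA and piRNA genes, Mael had 46.5, 62.5, 49.7 and 16.4 UMI CPM in Eed null against 4.35, 13.54, 0.942 and 2.86 in WT. At day 7 that was 117 UMIs against 2, a ratio of 52.7 with a counting interval of 14.3 to 440.6. Stk31 had 40.9, 57.6, 42.5 and 17.9 UMI CPM against 9.70, 9.34, 2.83 and 5.01, and the intervals of both genes were apart on all 4 days. Ddx4 differed less, with 27.1, 35, 38.6 and 13.4 UMI CPM against 12.0, 22.9, 7.06 and 7.87, and its intervals overlapped at days 4 and 10.

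The meiotic genes Tex11, Sycp1 and Hormad1 were nearly absent from WT, with at most 2.33, 3.73 and 2.33 UMI CPM in a library. In Eed null they had 27.4, 37.7, 21.6 and 5.97 UMI CPM (Tex11), 14.1, 21.3, 23.8 and 7.46 (Sycp1), and 10.9, 15.1, 6.79 and 2.99 (Hormad1), with intervals apart from WT at days 0, 4 and 7 but not at day 10. Taf7l had 3.83, 8.42, 13.2 and 11.2 UMI CPM against 0.335, 3.73, 0.942 and 2.15, apart at days 0 and 7.

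Sycp3 went the other way. WT held 54.2, 251, 64.98 and 62.95 UMI CPM, and Eed null 21.2, 61.6, 53.5 and 19.4, with ratios of 0.391, 0.246, 0.823 and 0.308 and intervals that overlapped at day 7 only. In Mtf2 null it had 13.9, 52.3, 7.48 and 2.78 UMI CPM and in Jarid2 null 20.6, 76.1, 33.05 and 6.92, below the WT interval on every day. This WT is E14, and against JM8 in the bulk EBs the label Jarid2 null had a positive log2 fold change of Sycp3 (1.38). Sycp3 alone made up 925 of the 1352 member UMIs of WT cells, against 363 of 3684 in Eed null, so the summed level in WT is mostly that gene.

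**Figure D4:**
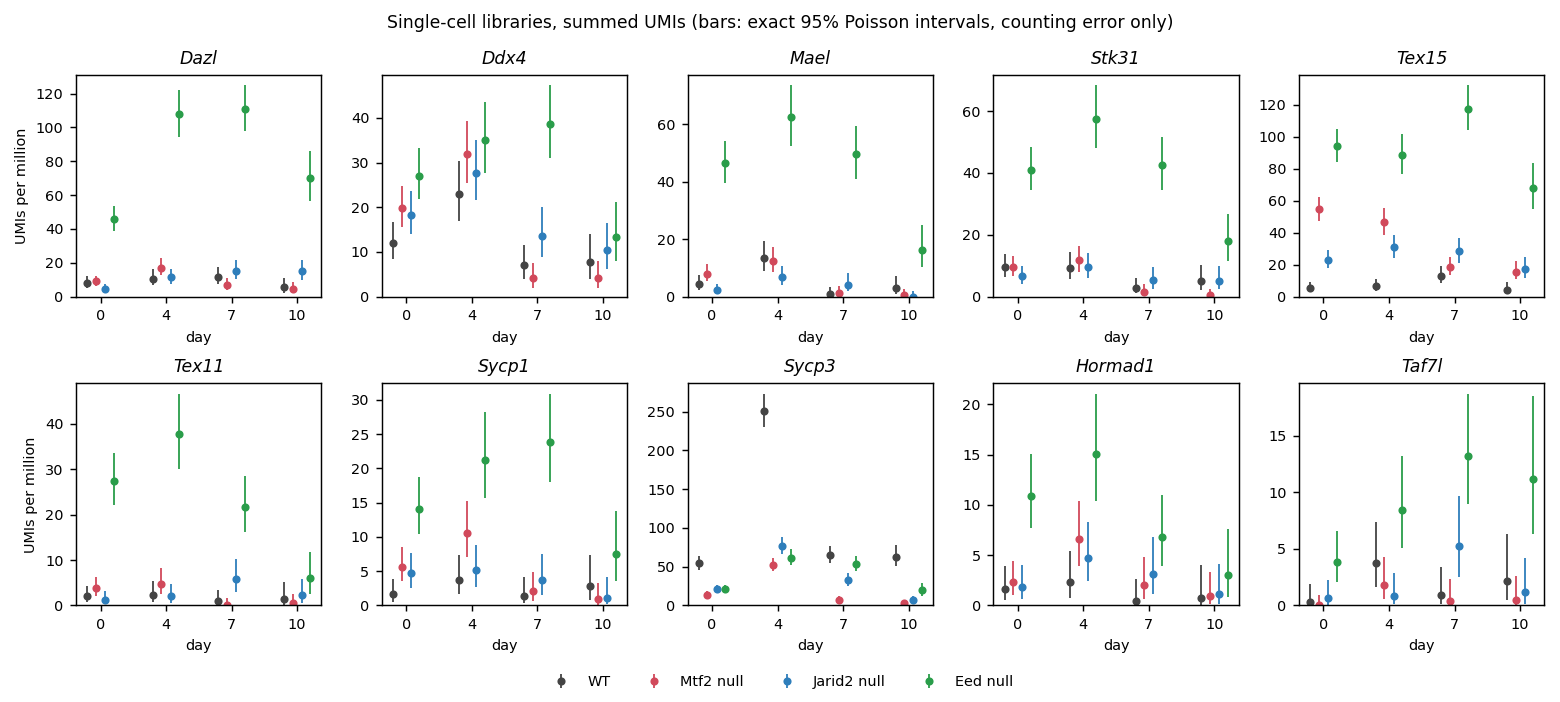
UMI CPM of each member by day in the single-cell libraries of the 4 genotypes, with bars for 95% Poisson intervals. Eed null lies above the others for Dazl (45.9 to 111 against at most 17.2 elsewhere), while WT is highest for Sycp3, at 251 in day 4.

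The share of cells with at least 1 member UMI, after each cell was thinned to 2500 UMIs, was 52.6%, 60.3%, 49.5% and 20.5% in Eed null at days 0, 4, 7 and 10 and 21.8%, 42.5%, 20.1% and 14.7% in WT (17 to 43 and 15 to 44 shallower cells left out per library). Unthinned it was 83.5%, 76.9%, 69.9% and 30.7% against 51.2%, 58.0%, 31.01% and 26.2%. As background, the WT cells of the late clusters 4 and 19 (122 and 8 cells) had 6.72% after thinning (8 of 119 cells) and 17.7% before (23 of 130 cells, median 5862 UMIs), with 25 of their 38 member UMIs from Sycp3. Library medians ran from 4997 to 10603 UMIs per cell. Up to 9 members were found in 1 Eed null cell, and 4 or more members in 54, 60, 59 and 8 Eed null cells at days 0, 4, 7 and 10, against 1, 0, 1 and 1 in WT.

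By the authors' 22 clusters of finer resolution, cluster 10 held the most member transcripts, at 723 UMI CPM over the 10 genes (687 to 759). All of its 244 cells were Eed null, 83 of them from day 4 and 126 from day 7. It had the highest level of 8 of the 10 members, Dazl (183 UMI CPM), Tex15 (161), Stk31 (83.8), Mael (81.0), Tex11 (43.7), Sycp1 (36.4), Taf7l (21.6) and Hormad1 (18.9). The second highest cluster for these genes was cluster 9 or 6, also made of Eed null cells (257 of 258 and 303 of 303). Since the clusters were drawn from the same counts, these levels are a description.

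In cluster 10, 50.4% of the cells had a Dazl UMI, 58.2% a Tex15 UMI and 90.6% a UMI of any member. Ddx4 was highest in cluster 9 (53.4 UMI CPM, mostly day 4 Eed null cells) and next in cluster 2 (38), with 162 Mtf2 null and 174 Jarid2 null cells among 340. Sycp3 had its highest levels in cluster 7 (254 UMI CPM) and cluster 12 (189), of which 278 of 292 and 208 of 228 cells were WT.

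Among Eed null cells alone the summed level differed between clusters. It was 328 UMI CPM in cluster 6, mostly of day 0, 434 in cluster 9 and 723 in cluster 10, and then 238 (209 to 270) in the day 7 cluster 16 and 153 (132 to 175) in cluster 13, where 193 of all 226 cells were from day 10. The Eed null cells of cluster 13 held Dazl at 35.4 and Tex15 at 67.0 UMI CPM, above the 2.75 and 8.25 UMI CPM of cluster 4, a day 7 and day 10 cluster with 3 Eed null cells among 324. Over all cells the lowest sums were 13.9 in cluster 18, 24.8 in cluster 4 and 25.3 in cluster 15.

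**Figure D5:**
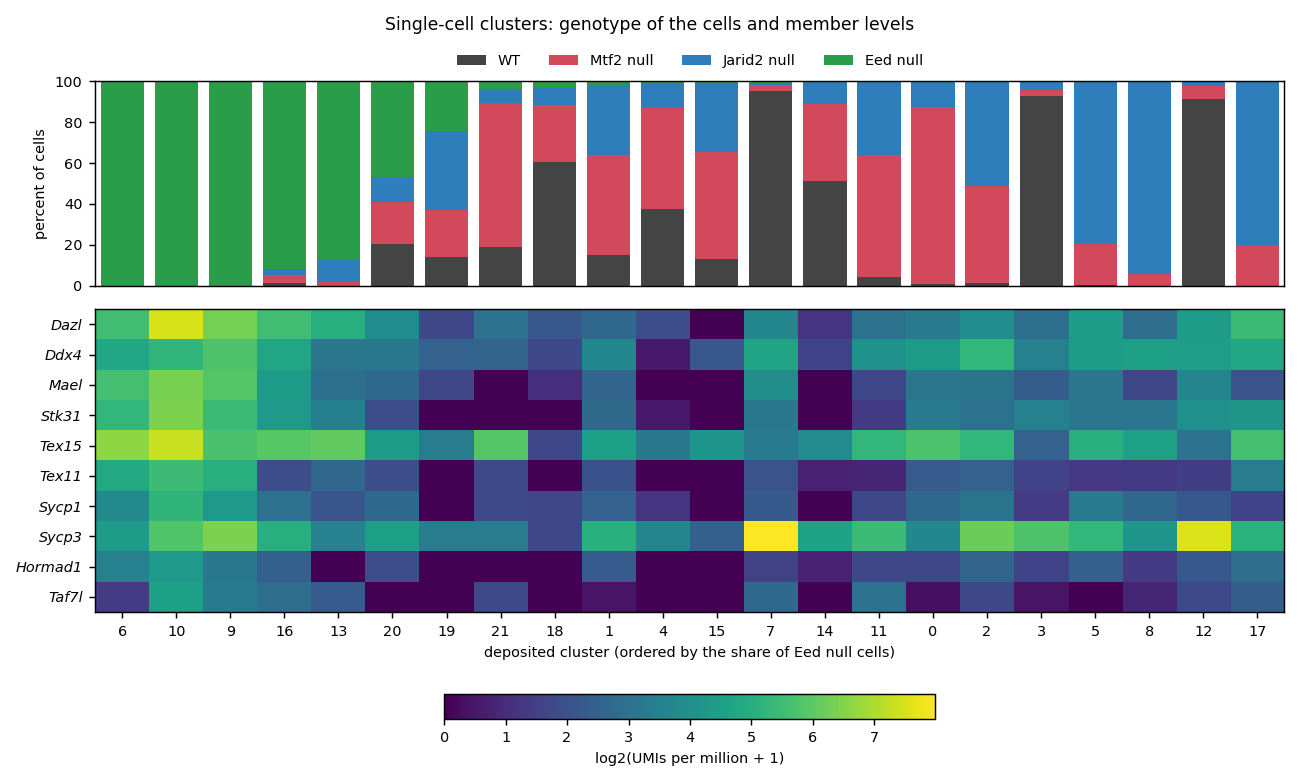
The upper panel gives the percent of cells of each genotype in the 22 clusters, ordered by their share of Eed null cells, and the lower panel the level of each member as colour on the scale of log2(UMI CPM + 1). Cluster 10 is highest for 8 members, from 18.9 (Hormad1) to 183 UMI CPM (Dazl), and clusters 7 and 12 are highest for Sycp3 at 254 and 189.

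The markers of germ cell types, from lists also chosen with earlier results of these data known, were read beside the members. Over the pooled days 24.2% of all genes had intervals above WT in Eed null cells. Of 6 measured primordial germ cell genes 4 did, namely Dppa3 (288 UMI CPM against 49.8), Prdm14 (18.8 against 8.55), Tfap2c (80.5 against 64.8) and Kit (54.2 against 42.99). Prdm1 overlapped WT (16.1 against 15.8), and Dnd1 lay below it (14.0 against 26.2). Of the 4 genotypes Eed null held the most Dppa3 and Prdm14. Tfap2c and Prdm1 stood higher in Jarid2 null (101 and 33.2) and Mtf2 null (91.4 and 29.3), and Kit had 54.9 in Jarid2 null. The summed list was highest in cluster 17 (1227 UMI CPM), with 100 Jarid2 null cells among 125, above cluster 10 (909). Of 14 genes of the synaptonemal complex and recombination with 20 or more UMIs 9 were above WT and 0 below, among them the entry genes of meiosis Stra8, at 21.3 UMI CPM against 1.502, and Meioc, at 26.9 against 7.16, and the cohesin genes Rec8 (15.0 against 5.32) and Smc1b (66.3 against 17.7). Intervals overlapped for 5 of the 14, among them Dmc1 (18.1 against 18.7). The gonadal somatic markers, of which 2 of 6, Sox9 and Star, were in the table, were higher in Eed null too. They summed to 5.59, 17.3, 103 and 213 UMI CPM at days 0, 4, 7 and 10 against 3.01, 5.14, 37.2 and 62.2 in WT, with intervals apart at days 4, 7 and 10. By cluster their sum was highest in clusters 13 (232), 15 (170), 16 (136) and 4 (110). It was 21.2 in cluster 10, 20.8 in cluster 9 and 5.28 in cluster 6, where the members stood high. Their part in the result was not tested.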

How the data were processed

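Bulk RNA-seq libraries and SORT-seq single cells were analysed from the deposited tables. Per the labels and methods the authors used Bowtie2, HTSeq, Salmon and DESeq2 on GRCm38 (mm10), with versions not given in the sources used here. The mesoderm and endoderm tables hold estimated counts by Salmon as deposited by the authors, which were rounded to whole numbers. The single-cell table holds UMI counts per cell as deposited by the authors. The EB table holds a depth-scaled signal per gene deposited by the authors, from which whole reads were recovered for 45 of 46 columns (100% whole within 0.02). The authors describe the bulk RNA-seq as done in duplicate. The recovered columns of a line and day, in most cases 2, were summed into a single sample, so the spread between them was not used. Eed null and J1 had a single column at day 0.

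Directed counts were tested with edgeR 4.0.16 (quasi-likelihood, TMM) in R 4.3.3, over 18361 mesoderm and 19261 endoderm genes, with thresholds of 0.001 for the Benjamini-Hochberg adjusted p and 1 for the absolute log2 fold change. DESeq2 1.42.0 was an alternative. EB reads were tested as log2 CPM (prior count 2, at least 1 CPM in 4 samples) with limma 3.58.1 and day as a block, at an adjusted p of 0.05. Single-cell levels are UMIs scaled to library size (UMI CPM) with 95% exact Poisson intervals, and shares were also taken after thinning to 2500 or 4000 UMIs per cell. All 384 well barcodes occur in more than 1 library, as each plate uses the same set. Alternatives are given in the closing section, with 60 refits that leave out 1 library. Each test was tested on simulated data. The columns of both directed tables carry replicate numbers that name technical duplicates.

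The members and lists were chosen with earlier results of these data known. Named were all 10 members, the 3 targeted genes, and at most 3 genes per other list by size of change among those called, and the single-cell list genes were named after their values were seen. The 24 h contrast, the contrast of both mutants, the fit over all 24 EB samples and the check of T, Sox17 and Foxa2 were added after the data had been seen.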

Additional observations from a re-analysis of the deposited data

Results flagged for a closer look

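Among 30 groups of 4 undifferentiated libraries, 1 had a library far from the others by Dixon's test, which chance gives in about 1 of 20 groups. It was Sycp3 in WT, where mesoderm replicate 1 had 12.79 CPM and the other libraries 19.0 to 20.2 CPM. Among 40 interaction tests, the Mtf2 null difference changed between undifferentiated cells and 48 h of the endoderm series for Mael (-1.709 on the log2 scale) and Taf7l (-2.118), by the edgeR test of the interaction itself.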

How the results depend on the processing

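No direction of a called member reversed under any alternative run. Of 73 called member fold changes, 42 lost their call under at least 1 alternative, each of them with 1 library or day left out. With an adjusted p of 0.05 and no fold limit, the mesoderm counts of called members were 6, 5 and 4 for Mtf2 null against WT in UD, 5 h and 24 h, 3 for the label Jarid2 null at 24 h, 2, 3 and 5 for 48 h against UD in WT, Mtf2 null and the label Jarid2 null, and 1 for the Mtf2 null interaction. In the endoderm series they were 5 and 6 for Mtf2 null at 5 h and 24 h, 2 and 1 for the label Jarid2 null in UD and at 48 h, 3, 8 and 4 for 48 h against UD, and 6 and 2 for the interactions of Mtf2 null and the label Jarid2 null. Over both series they were 8, 4 and 7 for Mtf2 null and the label Jarid2 null against WT and for the first against the second. Without the filter on low counts, the mesoderm counts were 4 and 4 for Mtf2 null in UD and at 5 h, 2 for the label Jarid2 null at 24 h, 2 and 3 for 48 h against UD in WT and Mtf2 null, and 1 for each interaction. The endoderm counts were then 1 for the label Jarid2 null at 5 h, 2 for its 48 h against UD, and 5 and 2 for the interactions. DESeq2 gave 1 for the label Jarid2 null at 24 h, 2 for Mtf2 null 48 h against UD in the mesoderm, and 0 and 1 for WT 48 h against UD and the Mtf2 null interaction in the endoderm series. DESeq2 size factors in edgeR gave 1 for the first and 0 for WT 48 h against UD. The shares of all genes called under these settings are not given here. The counts show only how the member calls depend on the setting. The cause of these shifts was not tested.

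Replicate numbers did not pair the samples, as the median correlation of the deviations of same-numbered libraries was -0.000725 (mesoderm) and 0.031 (endoderm) over 66 pairs each. With a replicate block the endoderm count for WT 48 h against UD went from 1 to 0, and no other count moved past 1.5 times.

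With 1 library left out, Mtf2 null against WT had 1 to 2, 1 to 1, 1 to 2 and 1 to 5 members called in the mesoderm by time and 3 to 4, 2 to 3, 1 to 2 and 4 to 7 in the endoderm series. The label Jarid2 null had 0 to 1 at 24 h of the mesoderm series and 0 to 0 elsewhere. For 48 h against UD the ranges were 0 to 0, 1 to 1 and 0 to 2 in the mesoderm and 0 to 1, 3 to 4 and 0 to 1 in the endoderm series (WT, Mtf2 null, label Jarid2 null), and 0 to 3 for the endoderm Mtf2 null interaction. Over both series they were 4 to 5, 0 to 0 and 3 to 4. In the EBs they were 0 to 2, 0 to 2 and 0 to 0 for the labels Mtf2, Jarid2 and Eed null.

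In the EBs all 3 labels had 0 members called without the filter. Without a day term the labels Jarid2 null and Eed null had 0 and 0, and 1 fit over all 24 samples gave 0, 1 and 6 for Mtf2, Jarid2 and Eed null. A prior count of 0.5 and edgeR on the recovered reads each left 1 for Eed null. In single cells the ratio of summed members of Eed null to WT at day 4 was 1.681 over all wells with 500 or more genes. The share of cells with a member UMI by day was 21.85, 42.51, 20.07 and 14.66% in WT and 52.63, 60.29, 49.49 and 20.45% in Eed null at 2500 UMIs per cell, and at 4000 UMIs 34.11% (day 0), 21.9% (day 7) and 20.39% (day 10) in WT and 67.89% (day 0) and 61.29% (day 7) in Eed null. Single-cell genotypes have 1 library a day, so depth and counting error are the only spread that could be measured there.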

Other observations

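Other germ cell genes of the lists were also found in Eed null samples. The lists were chosen with earlier results of these data known, so the counts are a description. In the single cells over all days, 7 of 9 other germ cell genes and 10 of 11 piRNA genes had intervals above WT in Eed null and 0 below, beside 24.2% of all genes above. Among them Sohlh2, a transcription factor of early germ cells, had 116.5 UMI CPM in Eed null and 1.62 in WT, Slc25a31, a testis ADP/ATP carrier, 25.3 against 1.62, and Tex19.1 93.9 against 19.5. Syce1, a central element protein of the synaptonemal complex, had 46.8 UMI CPM against 7.16. Asz1, a piRNA pathway gene, had 10.1 UMI CPM in Eed null and was at 0 in WT. In the bulk EBs labelled Eed null, where 8.43% of all genes were called, limma called 3 of 13 piRNA genes higher and 0 lower, among them Asz1 (log2 fold change 2.72), and 3 of 11 other germ cell genes higher and 0 lower, among them Slc25a31 (3.39) and Brdt (1.82). Of 17 tested genes of the synaptonemal complex and recombination 1 was higher, Stra8 (2.43). Under the label Mtf2 null, where 6.88% of all genes were called, limma called 3 of 13 piRNA genes higher and 1 lower, and 2 of 11 other germ cell genes higher and 1 lower.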
